A study of Mus musculus with 6 samples.

Results

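The acute-phase genes described here are 10 genes of secreted proteins whose synthesis changes during inflammation, out of 22105 genes measured in mouse 4T1 cells. They are Lcn2, Lrg1, Hp, Cp, Saa1, Saa2, Saa3, Orm1, C3 and Serpina3n, and each was matched by its symbol in the deposited table. Lrg1 and Hp were chosen by their measured values, because they were among the largest falls in the comparison described below although both are short genes. The other 8 were joined to them by function, with earlier results of the same comparison known. The values of all 10 are therefore given as a description, with no p-value.

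The line 4T1 is a mammary carcinoma line from a BALB/c mouse, grown here as a culture on its own. In the nanoparticle group, 4T1 cells were exposed for 24 h to particles named CM-PEG-PLGA@DOX/R848, at a dose equivalent to 2 µg/mL of doxorubicin (n = 3). In the PBS group, 4T1 cells received phosphate-buffered saline over the same 24 h (n = 3). DOX is doxorubicin, an anthracycline that poisons topoisomerase II, and R848 is resiquimod, an agonist of the endosomal receptors TLR7 and TLR8. No genotype difference separates the groups, both agents were given together in the particle, and free drug or empty particles were not analysed here.

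Acute-phase proteins are best known as liver products that enter the plasma within hours of infection or injury. Interleukin 6 type cytokines act on them through the shared receptor chain gp130 and the transcription factor STAT3, interleukin 1 and TNF act through NF-kB, and C/EBPβ and C/EBPδ bind many of their promoters. Epithelial and tumour cells also make several of them, among them lipocalin 2, complement C3 and serum amyloid A3.

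Values are FPKM, fragments scaled by transcript length and by library size, as deposited. Their depth is unknown, so no counting interval can be given and values under 1 FPKM carry an unknown counting error. Summed FPKM was 468387 to 472869.5 in the nanoparticle libraries and 421544 to 425231 in the PBS libraries, and 10596 to 10631 genes reached 1 FPKM in each of the 6. Across tested genes, which are not independent replicates, libraries of one group correlated at 0.9956 to 0.9969 and libraries of different groups at 0.8617 to 0.8649 (Pearson's r of log2 values). Nothing in the labels says that replicates came from separate cultures, so the errors and p-values here cover only sample-to-sample spread, possibly technical. In a bulk culture, fewer cells that make a transcript and less of it per cell cannot be told apart.

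The DNA just before the transcription start was read for the motifs of these factors, because the genes share cytokine control in the liver. RefSeq start sites on GRCm38.p6 gave 250 bases before the start for 8 of the 10 genes, all but Hp and Orm1, and Cp had 2 starts. The letters searched on both strands were TTGCNNAA for C/EBP, TTCNNNGAA for STAT, GGGANNNNCC for NF-kB and TATAAA for the TATA box, a choice made with these genes already known. The windows of 6 genes are shown because they run from the lowest fold change, in Lrg1, to the only tested gene that was higher, C3, and include the 3 neighbouring serum amyloid A genes; capitals mark every match. Coordinates are chr2:32387740-32387989 (minus strand) for Lcn2, chr17:56121947-56122196 (minus) for Lrg1, chr7:46742981-46743230 (minus) for Saa1, chr7:46751583-46751832 (plus) for Saa2, chr7:46715677-46715926 (minus) for Saa3 and chr17:57228137-57228386 (minus) for C3.
Lcn2: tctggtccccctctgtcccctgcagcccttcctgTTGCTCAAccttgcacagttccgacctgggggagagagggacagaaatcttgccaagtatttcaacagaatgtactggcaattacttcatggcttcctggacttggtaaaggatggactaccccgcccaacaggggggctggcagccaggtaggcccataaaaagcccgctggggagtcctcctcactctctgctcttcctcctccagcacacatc
Lrg1: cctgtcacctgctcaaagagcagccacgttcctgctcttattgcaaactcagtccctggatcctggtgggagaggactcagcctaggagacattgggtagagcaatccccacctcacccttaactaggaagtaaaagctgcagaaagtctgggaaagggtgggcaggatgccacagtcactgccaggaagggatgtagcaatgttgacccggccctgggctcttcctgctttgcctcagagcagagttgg
Saa1: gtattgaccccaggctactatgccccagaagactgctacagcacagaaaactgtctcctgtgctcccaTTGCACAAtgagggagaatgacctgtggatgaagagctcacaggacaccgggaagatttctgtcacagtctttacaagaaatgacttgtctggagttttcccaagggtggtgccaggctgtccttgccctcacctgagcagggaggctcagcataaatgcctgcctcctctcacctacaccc
Saa2: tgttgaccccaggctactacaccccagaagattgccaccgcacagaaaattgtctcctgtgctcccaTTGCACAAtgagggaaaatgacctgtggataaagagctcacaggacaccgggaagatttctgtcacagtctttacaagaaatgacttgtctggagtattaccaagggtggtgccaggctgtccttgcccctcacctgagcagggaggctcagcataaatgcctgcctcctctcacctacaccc
Saa3: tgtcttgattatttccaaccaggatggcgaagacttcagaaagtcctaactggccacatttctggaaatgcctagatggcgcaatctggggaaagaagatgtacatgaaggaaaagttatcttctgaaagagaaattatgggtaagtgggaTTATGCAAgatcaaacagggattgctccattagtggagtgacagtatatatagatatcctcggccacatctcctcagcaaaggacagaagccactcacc
C3: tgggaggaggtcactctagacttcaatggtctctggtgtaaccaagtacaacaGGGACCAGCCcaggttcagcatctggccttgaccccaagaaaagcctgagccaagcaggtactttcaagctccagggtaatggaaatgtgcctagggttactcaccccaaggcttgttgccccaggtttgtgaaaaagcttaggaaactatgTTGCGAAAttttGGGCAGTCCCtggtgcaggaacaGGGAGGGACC

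The C/EBP letters stood in 6 of the 8 genes, Lcn2, Cp, Saa1, Saa2, Saa3 and C3, and in 9.6% of all 32851 RefSeq windows of this length. These 6 are not independent: the Saa1 and Saa2 windows are 94.8% identical, and Cp had 2 windows in which a match could stand. In Saa1 the 8 letters TTGCACAA lay 182 to 175 bases before the start, and in Saa2 the same letters lay 183 to 176 bases before it. The C3 match, TTGCGAAA, was nearer the start, at 45 to 38 bases. Lrg1 held none of the 4 motifs in its window, which says only that these letters are not there.

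The NF-kB letters stood in C3, Serpina3n and Cp, against 17.6% of all windows. C3 carried 3 such stretches and Serpina3n carried 2. The STAT letters stood in 0 of the 8 genes and in 7.0% of all windows. The TATA letters stood only in Cp among the 8 genes, at its second start, where the copies on the 2 strands overlap, and in 12.4% of all windows.

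**Figure D1:**
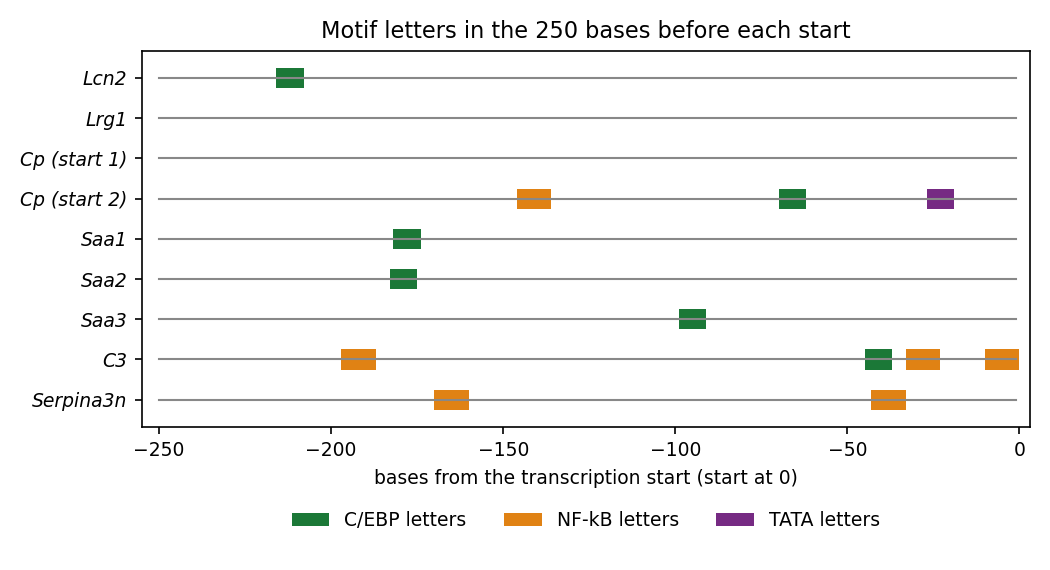
Position of each motif match in the 250 bases before the start, for 9 windows of 8 genes; the x axis is bases from the transcription start, colours name the motif, and overlapping matches merge. Green C/EBP boxes appear in 6 genes and orange NF-kB boxes in 3, while Lrg1 and the first start of Cp hold no box.

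A gene was tested where at least 3 of the 6 libraries reached 1 FPKM, with limma on log2(FPKM + 1), and called at an adjusted p under 0.05. Of the 10 genes, 8 passed that filter. Orm1 and Serpina3n did not, and Lrg1 passed only through the PBS libraries, so that it had to be lower in the nanoparticle libraries. Among the 6 tested genes not chosen by their own values, 5 were called lower (Lcn2, Cp, Saa1, Saa2 and Saa3) and 1 was called higher (C3). Over all 10863 tested genes, 46.0% were called lower and 40.5% higher. In each of the 8 tested genes the 3 nanoparticle libraries did not overlap the 3 PBS libraries, 7 being lower and 1 higher, as was so for 46.4% of all tested genes in the lower direction and 40.8% in the higher. The comparison itself chose the genes, so nothing is read from these counts.

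**Figure D2:**
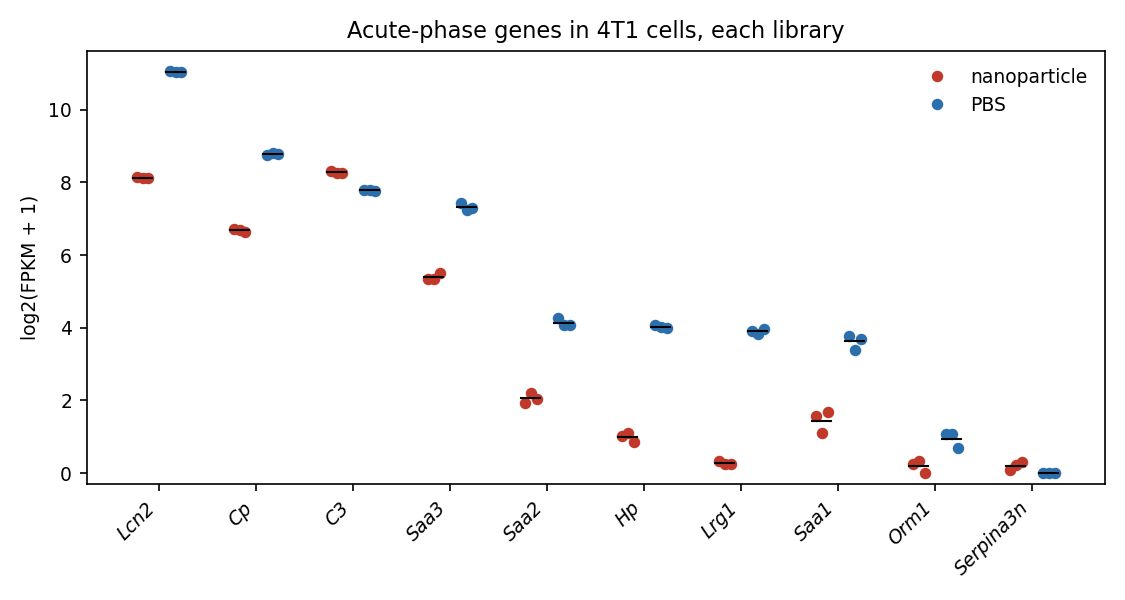
Each point is 1 library on the log2(FPKM + 1) axis, nanoparticle (red) left of PBS (blue) for each gene, with a line at the group mean. The groups stand apart for every gene; C3 and Serpina3n are higher in the nanoparticle libraries and the other 8 are lower.

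Lcn2 encodes lipocalin 2, a secreted protein that binds bacterial siderophores and so withholds iron. It spans 3.62 kb on chromosome 2 (32384633 to 32388252, minus strand, GRCm38). This span is from GENCODE, and the RefSeq window of Lcn2 shown above lies wholly inside it. The windows of Lrg1, Saa2, Saa3 and the second start of Cp overlap their GENCODE spans in part. Lcn2 had 281, 275 and 279 FPKM in the nanoparticle libraries, against 2147, 2093 and 2088 FPKM in the PBS libraries. The PBS libraries were all several times above the nanoparticle libraries, and the spread within either group was small. The means were 278 ± 3.05 FPKM in nanoparticle cells and 2109 ± 32.5 FPKM in PBS cells (SD, n = 3 each), a 7.58-fold lower level in nanoparticle cells, and the log2 fold change was −2.92 with a standard error (SE) of 0.024. By level Lcn2 ranked 220 to 223 among all genes of the nanoparticle libraries, and 14 to 15 in the PBS libraries. Its own share of summed FPKM was 0.0587% to 0.0594% in nanoparticle cells and 0.492% to 0.505% in PBS cells. This was the largest difference in FPKM among the 10 genes.

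Hp encodes haptoglobin, which captures free haemoglobin, and lies on chromosome 8 (109575128 to 109579172, minus strand, a span of 4.04 kb). Hp had 1.04, 1.13 and 0.812 FPKM in the nanoparticle libraries and 15.9, 15.2 and 14.9 FPKM in the PBS libraries. Every PBS library was far above every nanoparticle library, whose values lay around the 1 FPKM filter. The means were 0.996 ± 0.166 FPKM in nanoparticle cells and 15.4 ± 0.491 FPKM in PBS cells (SD, n = 3 each), with a log2 fold change of −3.04 (SE 0.071). On the log2(FPKM + 1) scale the change of such a low gene is understated: with a pseudocount of 0.1 it was −3.83. After rescaling each library to TPM the log2 fold change was −3.59, but that rescaling also shifted the median of all genes by −0.15.

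Cp encodes ceruloplasmin, the copper-carrying ferroxidase of plasma that oxidises iron for loading onto transferrin. Cp is the longest of the 10, with a span of 52.1 kb on chromosome 3 (19957054 to 20009145, plus strand). It had 104, 102 and 98.9 FPKM in the nanoparticle libraries, against 433, 445 and 435 FPKM in the PBS libraries. No library of one group came near the other. The means were 102 ± 2.72 FPKM in nanoparticle cells and 438 ± 6.13 FPKM in PBS cells (SD, n = 3 each), 4.31-fold lower in nanoparticle cells, and the log2 fold change was −2.10 (SE 0.027).

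Lrg1 encodes leucine-rich alpha-2-glycoprotein, a secreted protein that modulates TGF-beta signalling in blood vessels. It spans 2.32 kb on chromosome 17 (56119678 to 56122001, minus strand). Lrg1 had 0.256, 0.183 and 0.183 FPKM in the nanoparticle libraries and 14.0, 13.1 and 14.7 FPKM in the PBS libraries. All nanoparticle values were far under the filter, and the PBS values were close to those of Hp and Saa1. The means were 0.208 ± 0.0421 FPKM in nanoparticle cells and 13.9 ± 0.808 FPKM in PBS cells (SD, n = 3 each), and the nanoparticle mean was 0.0149 times the PBS mean. The log2 fold change was −3.63 (SE 0.066) on the scale used, −5.52 with a pseudocount of 0.1 and −4.56 after rescaling to TPM. The TPM value includes the shift of −0.15 in the median of all genes. Without any 1 of the PBS libraries, only 2 libraries reach 1 FPKM and Lrg1 would not be tested.

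The serum amyloid A genes lie together on chromosome 7. Saa1 and Saa2 encode the acute-phase apolipoproteins that ride on high-density lipoprotein, and Saa3 is the member made mainly outside the liver. Their transcripts differ in how far reads can be told apart. The reference transcripts of Saa1 and Saa2 were 93.9% identical over 609 aligned columns, with a longest shared run of 99 bases, so fragments may have been shared or split between them and their separate values are uncertain. Saa3 was 61.6% identical to Saa1 and 60.8% identical to Saa2.

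Saa3 (chromosome 7, 46711998 to 46715700, minus strand) was the most abundant of these genes, with 39.9, 39.4 and 44.5 FPKM in the nanoparticle libraries and 171, 151 and 157 FPKM in the PBS libraries. The groups were widely separated. The means were 41.3 ± 2.79 FPKM in nanoparticle cells and 160.0 ± 10.2 FPKM in PBS cells (SD, n = 3 each), with a log2 fold change of −1.93 (SE 0.057).

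Saa2 (46751790 to 46754313, plus strand) had 2.83, 3.59 and 3.11 FPKM in the nanoparticle libraries and 18.1, 15.8 and 15.8 FPKM in the PBS libraries. Saa1 (46740497 to 46742980, minus strand) had 1.97, 1.13 and 2.20 FPKM in the nanoparticle libraries and 12.8, 9.45 and 12.0 FPKM in the PBS libraries. In both genes the nanoparticle libraries lay under all PBS libraries, and the second library of each group gave the lowest Saa1 value. The log2 fold change was −2.07 (SE 0.079) for Saa2 and −2.18 (SE 0.17) for Saa1, whose SE was the widest of the 8 tested genes.

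The ratio of Saa1 to Saa2 was 0.696, 0.314 and 0.707 in the nanoparticle libraries and 0.705, 0.598 and 0.756 in the PBS libraries, so the groups overlapped. Saa3 over the sum of Saa1 and Saa2 was 8.31 to 8.38 in the nanoparticle libraries and 5.54 to 6.0 in the PBS libraries, with no overlap. The more abundant Saa3 thus had the smaller proportional difference.

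Orm1 encodes orosomucoid 1, a plasma carrier of basic drugs and a modulator of immunity, and lies on chromosome 4 (63344560 to 63348163, plus strand). It had 0.19, 0.27 and 0 FPKM in the nanoparticle libraries and 1.1, 1.1 and 0.606 FPKM in the PBS libraries. The groups did not overlap, but only 2 libraries reached 1 FPKM and the gene was not tested. With no filter the log2 fold change was −0.74 (SE 0.14). After rescaling to TPM it was −1.28 (SE 0.21), but there Orm1 passed the filter only through the PBS libraries, which fixed its direction. The transcript is 91.0% identical to Orm2 and 86.1% identical to Orm3, so these low values may also include shared fragments.

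C3 encodes complement component 3, the central protein of the complement cascade, and was the only tested one of the 10 to be higher in nanoparticle cells. It lies on chromosome 17 (57203970 to 57228136, minus strand, a span of 24.2 kb). C3 had 316, 307 and 305 FPKM in the nanoparticle libraries, against 221, 219.9 and 216 FPKM in the PBS libraries. All nanoparticle libraries were above all PBS libraries. The means were 309 ± 5.73 FPKM in nanoparticle cells and 219 ± 2.45 FPKM in PBS cells (SD, n = 3 each), a ratio of 1.41, with a log2 fold change of 0.50 (SE 0.025). After rescaling to TPM, which shifted the median of all genes by −0.15 on the log2 scale, it was 0.34. C3 ranked 196 to 203 by level in the nanoparticle libraries and 229 to 236 in the PBS libraries.

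Serpina3n encodes a serine protease inhibitor, a mouse counterpart of human alpha-1-antichymotrypsin, on chromosome 12 (104406729 to 104414329, plus strand). It had 0.0583, 0.16 and 0.227 FPKM in the nanoparticle libraries and was listed at 0 in all 3 PBS libraries. The gene was not tested, and no fold is given against a group at 0. Nanoparticle libraries listed 18319 to 18509 genes above 0, against 13544 to 13808 in PBS libraries, so many genes at 0 in PBS cells had such low values in nanoparticle cells. The part of this in the Serpina3n values was not tested. Of 9 other genes of the Serpina3 cluster in the table, 8 were under 1 FPKM in every library. The remaining one, Serpina3g, had 5.44 ± 0.352 FPKM in nanoparticle cells and 0.34 ± 0.0954 FPKM in PBS cells (SD, n = 3 each; log2 fold change 2.26). Serpina3g reached 1 FPKM in no PBS library, which set its direction, and without any 1 nanoparticle library it was not tested, which left 0 called genes in the cluster.

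The order of levels also differed between the groups. In nanoparticle cells the order by mean was C3, Lcn2, Cp, Saa3, Saa2, Saa1, Hp, Lrg1, Orm1 and Serpina3n. The library ranges of Saa1 and Hp overlapped there, as did those of Lrg1, Orm1 and Serpina3n. In PBS cells it was Lcn2, Cp, C3, Saa3, Saa2, Hp, Lrg1, Saa1, Orm1 and Serpina3n, and the ranges of Saa2 and Hp overlapped.

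Summed over the 10 genes, FPKM was 747.4, 730.0 and 733.1 in the nanoparticle libraries, against 3034, 2963 and 2954 in the PBS libraries. The sum made up 0.155% to 0.158% of library FPKM in nanoparticle cells and 0.697% to 0.713% in PBS cells. Lcn2 supplied 37.6% to 38.0% of it in nanoparticle cells, against 70.6% to 70.8% in PBS cells. C3 supplied 41.6% to 42.2% in nanoparticle cells, against 7.28% to 7.42% in PBS cells. The sum was thus mostly Lcn2 in PBS cells and split mainly between C3 and Lcn2 in nanoparticle cells.

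**Figure D3:**
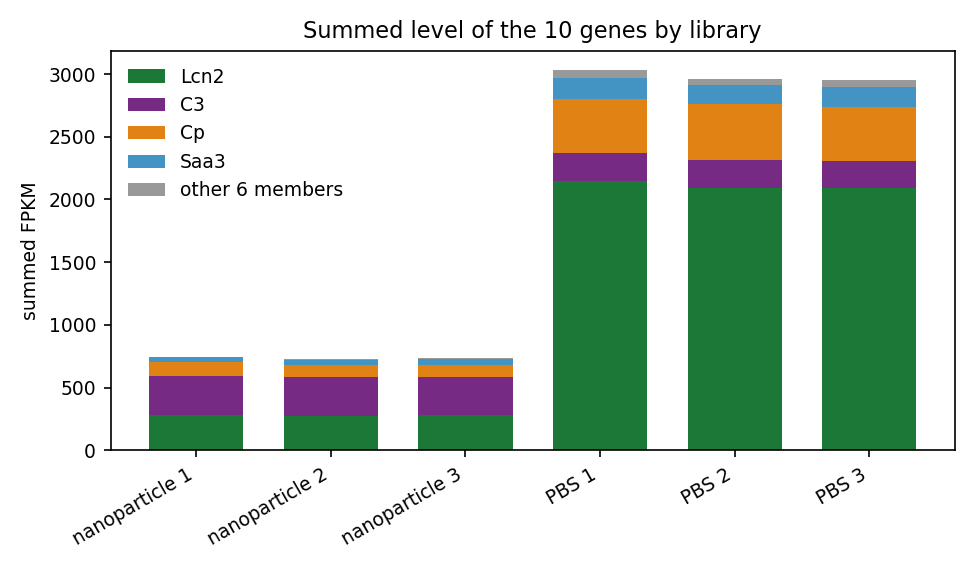
Summed FPKM of the 10 genes in each library, nanoparticle bars left of PBS bars, stacked by gene. The nanoparticle bars reach 730.0 to 747.4 FPKM and the PBS bars 2954 to 3034 FPKM, with Lcn2 (green) the main part of the PBS bars.

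Set against all 10863 tested genes, as a description, 3 genes had a log2 fold change at or below that of Lrg1, 9 at or below that of Hp and 12 at or below that of Lcn2, each count including the gene itself. The corresponding shares were 1.05% for Saa1, 1.21% for Cp, 1.26% for Saa2 and 1.78% for Saa3. C3 lay in the body of the distribution, with 75.0% of tested genes at or below it. The median log2 fold change of all tested genes was −0.06.

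**Figure D4:**
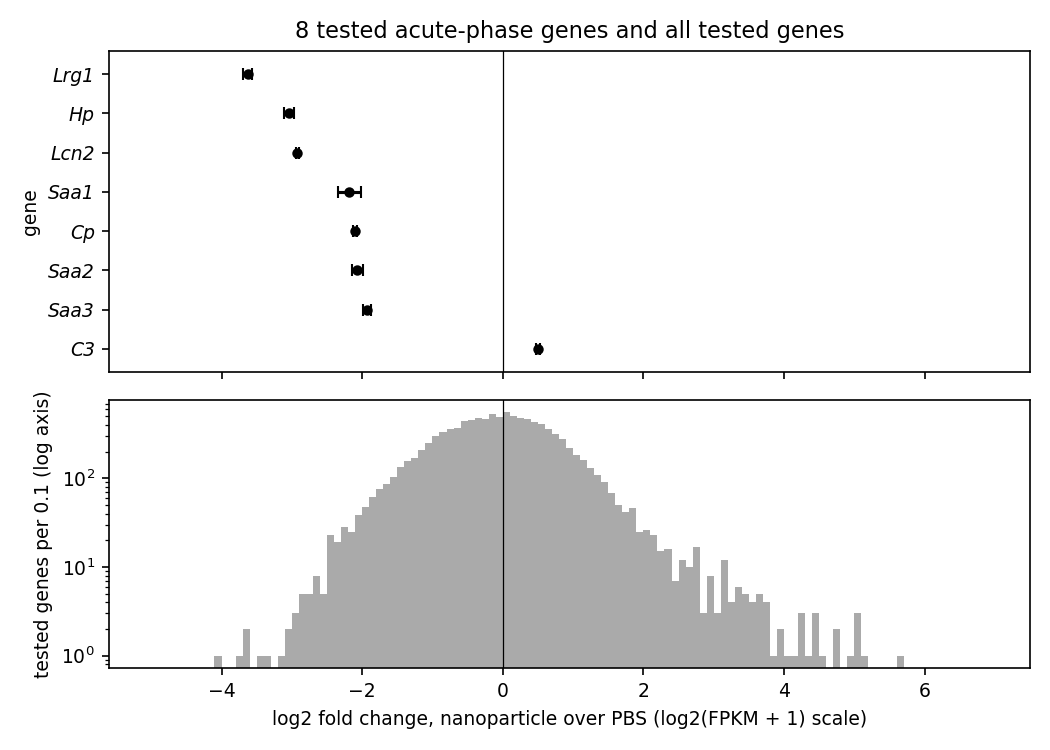
Log2 fold change, nanoparticle over PBS, of the 8 tested acute-phase genes (upper panel, bars are SE from the limma fit) above a histogram of all 10863 tested genes with a log count axis. Lrg1, Hp and Lcn2 sit in the sparse left tail at −3.63, −3.04 and −2.92, and C3 at 0.50.

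The genes closest to Lrg1 across the 6 libraries, by root-mean-square difference of log2(FPKM + 1), were Sspn (0.336), Mipol1 (0.341) and Hp (0.527). Those closest to Hp were Stag1 (0.186), Sspn (0.21) and Wnt6 (0.242). Sspn, the gene of sarcospan, had 0.669 ± 0.0648 FPKM in nanoparticle cells and 14.0 ± 0.302 FPKM in PBS cells (SD, n = 3 each). The measure rewards a like level as well as a like difference, over 6 libraries that share 2 conditions.

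A further 30 acute-phase genes were read beside the 10. Of these, 11 were tested: 3 rose, 6 fell and 2 did not pass. The median log2 fold change was −0.20, against −0.06 for all tested genes. Over all tested genes, 40.5% were called higher and 46.0% lower, the shares to set beside this list and each list below. With no filter on low values, 12 of the 30 rose and 6 fell. The other 19, among them Crp, Fga, Fgb, Fgg and Hpx, were under 1 FPKM in every library, and Hamp (hepcidin) was at 0 in all 6. Those that rose were Steap4, a metalloreductase, Cfb (complement factor B) and Ptx3 (pentraxin 3). Cfb had 20.1, 20.2 and 21.6 FPKM in the nanoparticle libraries and 3.41, 3.2 and 2.55 FPKM in the PBS libraries, without overlap (log2 fold change 2.42, SE 0.08, limma adjusted p = 3.08e-09). Factor B and C3 form the convertase of the alternative complement pathway, and both genes were higher in nanoparticle cells. Steap4 averaged 13.0 ± 0.763 FPKM in nanoparticle cells and 0.656 ± 0.236 FPKM in PBS cells, and Ptx3 averaged 2.33 ± 0.0624 FPKM in nanoparticle cells and 0.216 ± 0.12 FPKM in PBS cells (SD, n = 3 each). No PBS library reached 1 FPKM for either gene, which means that their direction was set by the filter, and without nanoparticle library 1 or 2 only 1 gene of the list rose. The genes that fell, chosen for mention after their values were seen, included Mt2, a metallothionein, with a log2 fold change of −0.75, Lbp, the lipopolysaccharide-binding protein, with −0.75, and Orm3, the paralog of Orm1, with −1.25. Orm3 had 0.117, 0.136 and 0.252 FPKM in the nanoparticle libraries and 2.06, 1.52 and 1.76 FPKM in the PBS libraries, the same direction as Orm1 above, though again fixed by the filter.

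Among IL-6 type cytokines and their receptors, 10 of 14 genes were tested, of which 7 rose and 3 fell (median 0.44). Il6, Il11 and Lif were higher, and both receptor chains for IL-6 were lower. Il6 had 24.0, 20.8 and 26.0 FPKM in the nanoparticle libraries and 0.128, 0.238 and 0.348 FPKM in the PBS libraries, a direction that the filter fixed. Il11 averaged 24.3 ± 0.341 FPKM in nanoparticle cells and 1.09 ± 0.255 FPKM in PBS cells (log2 fold change 3.61). Lif, encoding leukaemia inhibitory factor, averaged 59.9 ± 0.461 FPKM in nanoparticle cells and 16.9 ± 0.234 FPKM in PBS cells (1.77). Il6ra, the IL-6 receptor, averaged 7.82 ± 0.0639 FPKM in nanoparticle cells and 17.2 ± 0.458 FPKM in PBS cells (−1.04). Il6st, which encodes gp130, averaged 22.1 ± 0.487 FPKM in nanoparticle cells and 49.0 ± 0.381 FPKM in PBS cells (−1.11, limma adjusted p = 8.97e-10). All means are ± SD with n = 3 each.

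In the JAK-STAT3 relay, all 11 genes were tested, 5 rose and 6 fell (median −0.29). Stat3 itself was slightly lower, at 31.7 ± 1.62 FPKM in nanoparticle cells and 38.9 ± 0.977 FPKM in PBS cells (log2 fold change −0.29, limma adjusted p = 0.000114). Socs3, a feedback inhibitor induced by STAT3, was 42.3 ± 1.3 FPKM in nanoparticle cells and 22.2 ± 0.811 FPKM in PBS cells (0.90). Jak2, a kinase bound to gp130, was 15.2 ± 0.741 FPKM in nanoparticle cells and 48.7 ± 0.439 FPKM in PBS cells (−1.61). Socs1, another inhibitor of JAK kinases, averaged 6.76 ± 0.541 FPKM in nanoparticle cells and 0.914 ± 0.109 FPKM in PBS cells (2.02), with its direction fixed by the filter. Of 6 genes listed by a Cebp symbol, 4 were tested, 2 rose and 2 fell (median 0.21). Those that rose include Cebpz (0.87), which shares the symbol but is not a member of the C/EBP family. Cebpb was lower, at 131, 129 and 129.9 FPKM in the nanoparticle libraries and 234, 236 and 243 FPKM in the PBS libraries (−0.86, SE 0.025). Cebpd was higher, at 21.8, 22.1 and 22.0 FPKM in the nanoparticle libraries and 6.88 FPKM in each PBS library (1.54, SE 0.039). The genes of these C/EBP factors thus differed in opposite directions.

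Of 15 genes of NF-kB factors and inhibitors, 9 rose, 5 fell and 1 did not pass (median 0.33). Without nanoparticle library 3 or without PBS library 3, 3 fell, and 2 fell at an adjusted p under 0.01. Tnfaip3, which encodes the inhibitor A20, rose to 52.5 ± 1.87 FPKM in nanoparticle cells, against 9.13 ± 0.656 FPKM in PBS cells (log2 fold change 2.40). Rela, the p65 subunit, averaged 71.4 ± 2.4 FPKM in nanoparticle cells and 35.1 ± 0.605 FPKM in PBS cells (1.00), and Nfkb1, the p105/p50 subunit, averaged 19.8 ± 0.748 FPKM in nanoparticle cells and 58.3 ± 0.984 FPKM in PBS cells (−1.51). Nfkbiz encodes IkB-zeta, a nuclear cofactor that Lcn2 transcription needs in mouse macrophages. Nfkbiz had 44.1, 48.5 and 41.3 FPKM in the nanoparticle libraries and 36.2, 36.4 and 36.5 FPKM in the PBS libraries, without overlap (0.28, SE 0.052, limma adjusted p = 0.000595). It was higher in the same nanoparticle libraries in which Lcn2 was lower, and any link between them was not tested.

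The IL-1, TNF and TLR inputs had 15 of 18 genes tested, of which 3 rose and 12 fell (median −0.42); without nanoparticle library 1, 1 rose. Il1r1, the signalling IL-1 receptor, fell to 4.75 ± 0.04 FPKM in nanoparticle cells, against 14.0 ± 0.439 FPKM in PBS cells (log2 fold change −1.39), and Il1rap, its partner chain, averaged 4.34 ± 0.579 FPKM in nanoparticle cells and 10.3 ± 0.717 FPKM in PBS cells (−1.08). Tnf averaged 2.7 ± 0.374 FPKM in nanoparticle cells and 0.418 ± 0.103 FPKM in PBS cells, a direction fixed by the filter. Glucocorticoids act with IL-6 on many acute-phase genes in liver. Of 8 genes of the glucocorticoid receptor and its targets, 6 were tested, 3 rose and 3 fell (median 0.14). Nr3c1, the receptor, averaged 5.47 ± 0.28 FPKM in nanoparticle cells and 15.1 ± 0.335 FPKM in PBS cells (−1.31), and Tsc22d3, a common target also called GILZ, averaged 7.65 ± 0.544 FPKM in nanoparticle cells and 22.8 ± 1.67 FPKM in PBS cells (−1.46). Sgk1, another target, was higher, at 98.9 ± 4.27 FPKM in nanoparticle cells and 39.4 ± 1.64 FPKM in PBS cells (1.30). All values are means ± SD with n = 3 each.

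**Figure D5:**
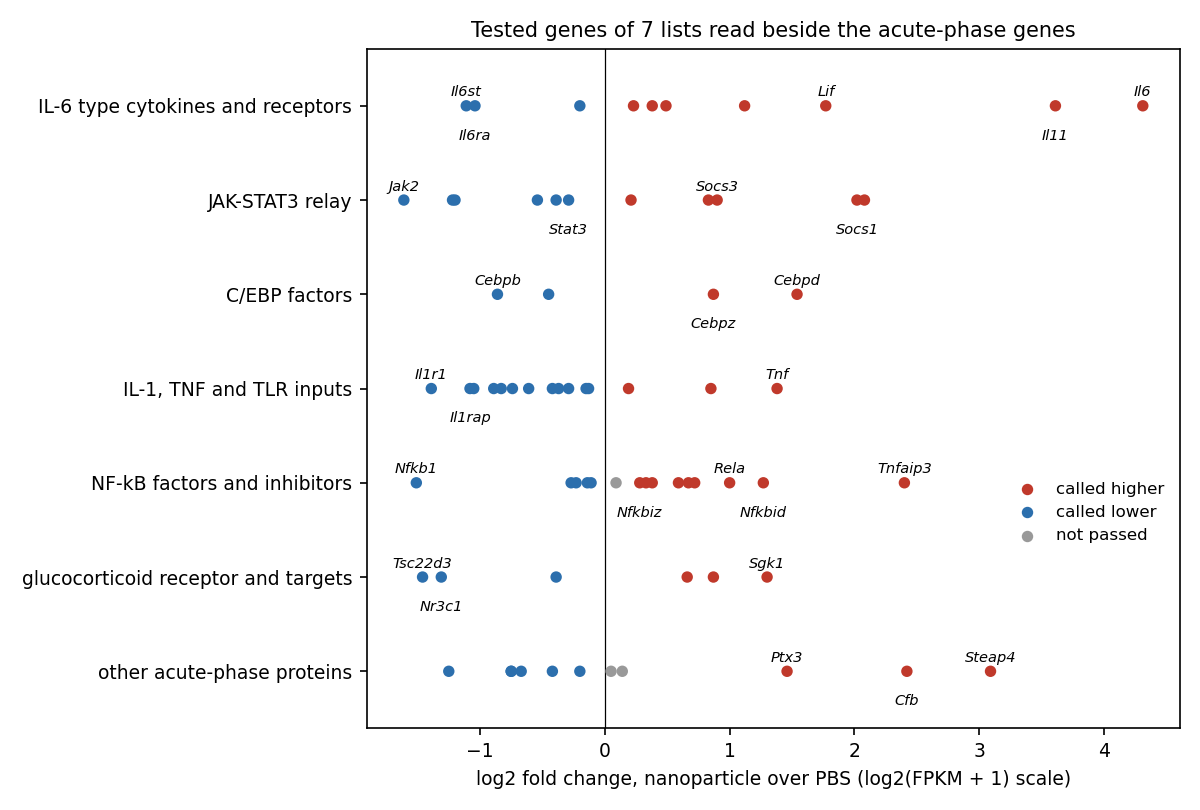
Log2 fold change, nanoparticle over PBS, of each tested gene (points) in 7 lists, coloured by call, with selected genes labelled. Cytokine genes such as Il6 and Il11 lie to the right, at 4.31 and 3.61, and the receptor genes Il6ra, Il6st, Il1r1 and Il1rap to the left, at −1.04, −1.11, −1.39 and −1.08. Not all receptor genes lie there: Il11ra1, chosen for mention after its value was seen, was called higher, at 0.23. The direction of Il6 was fixed by the filter.

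The receptors and partners of the acute-phase proteins were counted next. Of 21 genes, 8 were tested, 0 rose, 7 fell and 1 did not pass (median −0.68). Over all tested genes, 40.5% were called higher and 46.0% lower. With no filter on low values, 9 rose. Tgfbr1, a receptor of the TGF-beta pathway that LRG1 protein modulates, averaged 13.6 ± 0.864 FPKM in nanoparticle cells and 54.0 ± 0.813 FPKM in PBS cells (SD, n = 3 each; log2 fold change −1.91). Tgfbr2, its partner receptor, averaged 8.01 ± 0.205 FPKM in nanoparticle cells and 16.6 ± 0.119 FPKM in PBS cells (SD, n = 3 each; −0.97). P2rx7, an ATP-gated channel reported to respond to serum amyloid A, was 2.93 ± 0.583 FPKM in nanoparticle cells and 6.07 ± 0.102 FPKM in PBS cells (log2 fold change −0.86). Slc22a17, a reported receptor of lipocalin 2, was 0.0322 to 0.112 FPKM in the nanoparticle libraries and 0 to 0.0829 FPKM in the PBS libraries and was not tested. Of 18 genes of iron and haem handling, 13 were tested, 5 rose, 6 fell and 2 did not pass (median −0.10); without nanoparticle library 2, after rescaling to TPM or at an adjusted p under 0.01, 3 rose. Hmox1, the inducible haem oxygenase, rose to 58.5 ± 1.73 FPKM in nanoparticle cells, against 17.9 ± 0.616 FPKM in PBS cells (1.65, limma adjusted p = 2.57e-10). Hmox2, the constitutive form, averaged 23.6 ± 1.04 FPKM in nanoparticle cells and 46.1 ± 6.19 FPKM in PBS cells (−0.93). Lrp1, a receptor that takes up haem bound to haemopexin, averaged 10.5 ± 0.27 FPKM in nanoparticle cells and 34.2 ± 0.321 FPKM in PBS cells (−1.61).

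Markers of other cells that make these proteins were read as a check on the culture. All 10 hepatocyte markers were under 1 FPKM in every library, with sums of 1.01 to 1.53 FPKM in nanoparticle cells and 0.0531 to 0.117 FPKM in PBS cells, and Ttr and Fabp1 were at 0 in all 6. Of 13 neutrophil markers, 12 were under 1 FPKM in every library, with sums of 13.2 to 16.2 FPKM in nanoparticle cells and 25.2 to 31.3 FPKM in PBS cells. The sum was mostly S100a8, a calprotectin subunit, at 12.0 ± 1.21 FPKM in nanoparticle cells and 26.7 ± 3.33 FPKM in PBS cells (SD, n = 3 each; log2 fold change −1.09). Of 12 macrophage markers, 9 were under 1 FPKM in every library, and the sums were 38.9 to 42.2 FPKM in nanoparticle cells and 11.3 to 14.7 FPKM in PBS cells. The 3 tested ones, Cd68, Csf1r and Mpeg1, were called higher, though without any 1 nanoparticle library only 1 was, since Csf1r and Mpeg1 were under 1 FPKM in PBS cells.

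Of 8 fibroblast markers, 7 were under 1 FPKM in every library. The eighth, Pdgfra, had 4.76 ± 0.344 FPKM in nanoparticle cells and 20.5 ± 0.255 FPKM in PBS cells (SD, n = 3 each), and the sums were 5.24 to 6.73 FPKM in nanoparticle cells and 20.8 to 21.2 FPKM in PBS cells. The part of neutrophil, macrophage, fibroblast and hepatocyte markers in the acute-phase values was not tested. Of 11 mammary carcinoma and epithelial markers, 6 were tested, 5 rose and 1 did not pass; without PBS library 1, or after rescaling to TPM, 1 fell. Krt8 averaged 343 ± 0.924 FPKM in nanoparticle cells and 215 ± 2.58 FPKM in PBS cells, and Krt18 averaged 685 ± 22.7 FPKM in nanoparticle cells and 514 ± 6.33 FPKM in PBS cells (SD, n = 3 each). Epcam, also an epithelial marker, was under 1 FPKM in every library.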

How the data were processed

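RNA of 6 samples of 4T1 cells (3 nanoparticle, 3 PBS) was sequenced after TRIzol extraction and mRNA enrichment, per the labels' protocols. The deposited values are FPKM, a unit inferred from the values. The submitters' processing notes name STAR, featureCounts, GRCm38 and mm10. The sources used here do not give the program that made the FPKM values, its annotation release or its strand setting. The depth is unknown. Samples were grouped by the treatment in the labels.

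Of 22806 features, 701 without a gene identifier were left out of the tests. FPKM was transformed to log2(FPKM + 1). A gene was tested if 3 or more libraries had at least 1 FPKM, using limma 3.58.1 (trend and robust; statmod 1.5.0) in R 4.3.3, nanoparticle minus PBS. The p-values are two-sided, with Benjamini-Hochberg adjustment over all 10863 genes and calls under 0.05. The fit was also run on simulated data, in which few genes were changed, all with a mean level above the 1 FPKM filter. That run therefore does not speak to low genes or to data with as many calls as these. A fold on this scale understates the change of low genes.

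The members, the gene lists and the motifs were chosen with earlier results of these data known. All 10 members are named. Of each list, the 3 tested genes with the largest log2 fold change in size are named, with some preset regulators; 1 gene so chosen is not reported here. Other names are marked as chosen after their values were seen, except list genes named only as low or absent. Positions are from GENCODE M21 (GRCm38) and promoter windows from RefSeq (GRCm38.p6). The first-numbered GENCODE transcript of each paralog was aligned with Biopython 1.88. Other steps used Python 3.11.15, numpy 2.4.6, pandas 2.3.3 and matplotlib 3.10.9. Alternatives were a pseudocount of 0.1, no filter, a filter at 5 FPKM, rescaling to TPM, median-of-ratios scaling, a replicate block, each library left out and a threshold of 0.01.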

Additional observations from a re-analysis of the deposited data

How the results depend on the processing

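No alternative that could be fitted reversed the direction of a tested member. None ended the call of a tested member not chosen by its own values. The comparison itself chose the genes, so nothing further is read from these calls. Over 13 alternatives each, log2 fold changes ranged from −3.07 to −2.90 for Lcn2, −3.83 to −2.97 for Hp, −2.26 to −2.08 for Cp, −2.66 to −2.00 for Saa1, −2.38 to −2.01 for Saa2, −2.10 to −1.88 for Saa3 and 0.34 to 0.51 for C3. For Lrg1 the 10 alternatives that could be fitted gave −5.52 to −3.61. With no filter on low values, 8445 genes were called higher, against 4395 with it, and 2 of the acute-phase genes not chosen by their values were called higher, against 1, as Serpina3n was then tested. With no filter, and after rescaling to TPM, 6 of these genes were called lower, against 5, as Orm1 was then tested. After the rescaling Orm1 passed the filter only through the PBS libraries, so the filter fixed its direction. With no filter, low genes at 0 in PBS cells enter the test. Of 390 list counts, 27 moved by over 1.5 times, 8 of them of list genes called higher with no filter.

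The replicate numbers did not pair the samples. The correlations of same-numbered deviations were −0.014, −0.043 and 0.041, and none passed 0.1. With the replicate block, 4389 genes were called higher and 4982 lower, and the member counts were 1 higher and 5 lower, as without it. Depth is unknown, so values under 1 FPKM (all of Serpina3n, Lrg1 and Orm1 in nanoparticle cells, Orm1 in PBS library 3 and Hp in nanoparticle library 3) carry an unknown counting error.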

Other observations

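The tested genes within 100 kb of the acute-phase genes were counted as a description of their surroundings. There were 32 of them, of which 16 were called higher and 16 lower, near the shares over all tested genes (40.5% higher and 46.0% lower). Around Lrg1, 6 of 8 neighbours were called higher and 2 lower. Around Hp, 3 of 4 were called higher and 1 lower. Around Lcn2, 4 were higher and 4 lower. Around Cp and around Orm1, 0 of 2 were higher and 2 were lower. Those beside Orm1 include its paralog Orm3, whose direction was fixed by the filter. Around C3, 1 of 3 was higher and 2 were lower. Around the serum amyloid A genes, neighbours included Hps5, Gtf2h1 and Saal1, with 2 called higher and 2 lower beside each of Saa1, Saa2 and Saa3. These counts are largely of the same genes: Saa1 and Saa2 have the same 4 neighbours, and Saa3 shares Hps5, Gtf2h1 and Saal1 with them.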
